A study of Mus musculus with 6 samples.

Results

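The 10 genes studied here encode proteins that muscle cells secrete, the myokines Il6, Lif, Il15, Vegfa, Angptl4, Fst, Fstl1 and Csf1 and the stress cytokines Gdf15 and Fgf21, and were followed in myogenic cells after knockdown of CNN3, an actin-binding calponin. They were chosen by name, with earlier results of these data known, and all 10 were found among the 11835 genes of the expression table. C2C12, a mouse myoblast line, was the source of every library. It was grown to near confluence and then moved to medium with 2% horse serum, in which the cells differentiate and fuse. In the siNC group 3 samples were transfected with NC siRNA, a negative control, and in the siCNN3 group 3 samples were transfected with CNN3 siRNA. The growth and differentiation protocol is the same for both groups, and the study's methods describe a repeated transfection and a set harvest time for differentiation assays without tying them to the sequenced cultures. The labels give every sample as mouse myotube, while the methods call the sequenced cells differentiating myoblasts. The labels do not say whether the 3 samples of a group were separate cultures, so p-values measure the spread between these samples, which may be technical.

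Muscle cells communicate with other tissues, and with each other, through secreted proteins. Il6 and Lif are cytokines that signal through the shared receptor subunit gp130, Il15 is a cytokine that sustains lymphocytes and is made in muscle, and Gdf15 and Fgf21 are circulating hormones whose genes are targets of the integrated stress response, in which the factors ATF4 and CHOP act. Vegfa drives growth of blood vessels, Csf1 maintains macrophages, Angptl4 inhibits lipoprotein lipase, follistatin (Fst) binds and blocks myostatin and activins, and Fstl1 is a secreted glycoprotein of the follistatin-like family.

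The values are FPKM, fragments scaled to transcript length and to the number mapped, which the authors deposited per transcript and which were summed per gene. Read numbers are not in the sources used here and the smallest value above 0 is 1e-06 FPKM. The depth of each library is unknown, which leaves the counting error of these values unknown too. The library of siNC replicate 1 listed 2131 transcripts at 0, compared with 978 to 1333 in the other libraries. Cnn3, the targeted gene, measured 62.8, 61.4 and 62.8 FPKM with control siRNA, compared with 19.04, 39.2 and 25.6 FPKM after knockdown, with no overlap and an adjusted p of 0.0669 (limma). Cnn3 was therefore not called over all 6 libraries, and it was called without siCNN3 replicate 2, the library with the most Cnn3 left (adjusted p = 0.0475). Of 10 muscle markers 9 were listed, summing to 158.6 to 182.4 FPKM in siNC and 111.4 to 124.0 FPKM in siCNN3, and Myh8 was not listed. Ckm, muscle creatine kinase, was at 0.414 to 0.911 FPKM in siNC and at 0 to 0.0760 FPKM in siCNN3, and myogenin (Myog) was at 1.23 to 3.07 and at 0.485 to 0.907 FPKM. At an unadjusted p below 0.05, 5 of the muscle markers were lower, among them Acta1, Myh3 and Tnnt3, which were also called, and 1 was higher, the myoblast factor Myf5, which averaged 4.68 FPKM in siNC and 9.93 FPKM in siCNN3 and was not called. Of all tested genes, 6.14% were lower and 9.94% higher at that p, and 0.336% were called lower. Of the defining macrophage and leukocyte markers, Ptprc, Adgre1, Csf1r, Itgam and Cd3e were among those not listed, and Cd68 and Cd14 summed to 18.9 to 25.5 FPKM in siNC and 15.9 to 18.04 FPKM in siCNN3. Tek alone was listed of 6 endothelial markers, between 0.681 and 1.37 FPKM. Of 5 adipocyte markers Fabp4 was listed, at 8.09 to 10.9 FPKM in siNC and 2.17 to 3.13 FPKM in siCNN3. The summed muscle markers, the sum of Cd68 and Cd14, and Fabp4 were thus lower in every siCNN3 library, and their part in the results was not tested. In such bulk samples, fewer cells of a type and less RNA per cell cannot be told apart.

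In siCNN3, transcripts of Gdf15, Il6, Il15 and Fgf21 rose, and the other 6 genes did not pass the test in either direction. Lif and Csf1 were higher at an unadjusted p below 0.05, so that with the 4 called genes 6 of the 10 were higher and 0 lower at that p, which 9.94% and 6.14% of all tested genes passed. Called genes are those for which the adjusted p was below 0.05 in a limma fit of log2(FPKM + 1) over the 11593 genes that averaged 0.5 FPKM or more. All 10 genes passed that filter. Il15 and Fgf21 passed it through siCNN3, since each was below 0.5 FPKM in every siNC library, so the counts over the 10 genes are a description. Of all tested genes, 1.73% were called higher and 0.336% lower, so that 83.7% of the calls were higher, compared with 68.2% of them under quantile normalization. The groups did not overlap for 7 of the 10 genes, 6 of them higher and 1 lower in siCNN3, where 13.8% and 9.35% of all tested genes did so. The median log2 fold change was 0.49 for the 10 genes and 0.03 for all tested genes.

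**Figure D1:**
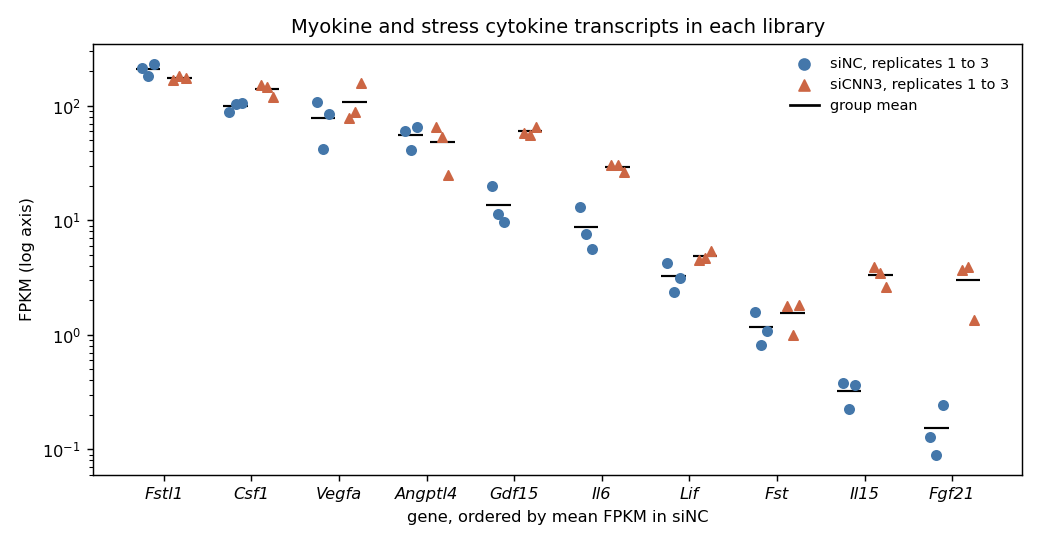
FPKM of the 10 genes in each of the 6 libraries on a log axis, with circles for siNC, triangles for siCNN3 and bars for group means. Gdf15, Il6, Il15 and Fgf21 show the widest gap between groups, and the values of Vegfa, Angptl4 and Fst overlap.

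In siNC, the order of levels per transcript length ran from Fstl1 at 209.3 ± 26.2 FPKM (SD, n = 3) through Csf1 at 99.1 ± 8.78, Vegfa at 78.5 ± 33.2 and Angptl4 at 55.5 ± 12.5 FPKM to Gdf15, Il6, Lif, Fst, Il15 and Fgf21, the last at 0.154 ± 0.0808 FPKM. The ranges of the 3 libraries overlapped for the neighbours Csf1 and Vegfa, Vegfa and Angptl4, Gdf15 and Il6, and Il15 and Fgf21, and were apart for the others. In siCNN3, Gdf15 at 59.8 ± 5.04 FPKM (SD, n = 3) stood above Angptl4 at 47.9 ± 20.7 FPKM with overlapping ranges, and Fst at 1.54 ± 0.473 FPKM had the lowest mean of the 10 genes, with a range that overlapped that of Fgf21.

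Gdf15 (chromosome 8 of GRCm38, 70629393 to 70632456) encodes growth differentiation factor 15, a hormone that lowers food intake through a receptor in the hindbrain. It measured 19.8, 11.3 and 9.76 FPKM with control siRNA (replicates 1, 2 and 3, the order used throughout), compared with 58.5, 55.5 and 65.4 FPKM after knockdown. Every siCNN3 library was above every siNC library, and siNC replicate 1 was the highest of the controls. The mean was 4.38-fold higher in siCNN3, with a log2 fold change of 2.11 ± 0.249 (SE) (adjusted p = 0.0144, limma with Benjamini-Hochberg adjustment). Gdf15 dropped out of the calls when siNC replicate 3, siCNN3 replicate 1 or siCNN3 replicate 2 was removed, with an adjusted p of up to 0.0655.

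Both annotated Gdf15 transcripts were listed and have the same coding length of 909 nucleotides. Gdf15-202 begins farther upstream and has 3 exons, and Gdf15-201 has 2 exons. Gdf15-201 measured 14.4, 10.2 and 7.47 FPKM with control siRNA, compared with 46.9, 27.9 and 42.2 FPKM after knockdown. For Gdf15-202 the values were 5.48, 1.13 and 2.29 FPKM in siNC and 11.6, 27.7 and 23.2 FPKM in siCNN3. Each was higher in every siCNN3 library than in any siNC library. The share of Gdf15-202 in the gene ranged from 10.02% to 27.6% in siNC and from 19.9% to 49.8% in siCNN3, so the shares overlapped. Tested on their own, neither transcript was called (adjusted p = 0.0832 for Gdf15-201 and 0.127 for Gdf15-202, limma), where 0.462% of all tested transcripts were called higher and 0.0785% lower.

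Fgf21 (chromosome 7, 45613886 to 45615490) encodes fibroblast growth factor 21, a hormone of fasting and cell stress that acts through β-Klotho and an FGF receptor. Its single transcript measured 0.129, 0.0889 and 0.245 FPKM with control siRNA, compared with 3.71, 3.895 and 1.34 FPKM after knockdown. The groups did not overlap, and siCNN3 replicate 3 was well below the other siCNN3 libraries. The ratio of the means was 19.3 and rests on siNC values under 0.5 FPKM. On the log2(FPKM + 1) scale, where changes of genes this low are understated, the fold change was 1.71 ± 0.301 (SE) (adjusted p = 0.0442, limma), and with a pseudocount of 0.1 it was 3.51. Fgf21 kept its call only when siCNN3 replicate 3 was the library left out, with an adjusted p of 0.00277 there and up to 0.169 in the other fits.

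Il15 (chromosome 8, 82331632 to 82403222) measured 0.381, 0.223 and 0.365 FPKM with control siRNA, compared with 3.91, 3.46 and 2.63 FPKM after knockdown. The 3 siCNN3 libraries lay together above the 3 siNC libraries, with siCNN3 replicate 3 the lowest of them. This was a 10.3-fold difference of the means, from control values below 0.5 FPKM, and a log2 fold change of 1.70 ± 0.174 (SE) (adjusted p = 0.0099, limma). As for Fgf21, the log2(FPKM + 1) scale understates a change this low, and with a pseudocount of 0.1 the log2 fold change was 3.02. Il15 lost its call when siNC replicate 3 or siCNN3 replicate 2 was removed (adjusted p up to 0.0647).

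The table listed 3 of the 10 annotated Il15 transcripts. Il15-202, with a coding length of 486 nucleotides, was at 0.112 FPKM in siNC replicate 1, was listed at 0 in the other siNC libraries, and was at 1.87, 1.89 and 1.61 FPKM in siCNN3. Il15-201, which has the same coding length, measured 0.189, 0.0470 and 0.365 FPKM with control siRNA, compared with 1.57, 1.27 and 0.655 FPKM after knockdown. Both were higher in every siCNN3 library. Il15-202 was the only transcript of the 10 genes called on its own (log2 fold change 1.43, adjusted p = 0.0384, limma). Of all tested transcripts, 0.462% were called higher. With means of 0.0372 FPKM in siNC and 1.79 FPKM in siCNN3, Il15-202 passed the filter of 0.5 FPKM through siCNN3, so this call is a description. An exact 0 in these values can be a failed estimate. With every transcript that was listed at 0 in any library removed, Il15 rested on Il15-201 alone and was not called (log2 fold change 0.84, adjusted p = 0.127, limma).

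Il6 (chromosome 5, 30013114 to 30019981) encodes interleukin 6, which contracting muscle releases and which also marks inflammation. It measured 13.2, 7.59 and 5.66 FPKM with control siRNA, compared with 30.6, 30.7 and 26.7 FPKM after knockdown. The siCNN3 libraries were close to each other and above the controls, among which siNC replicate 1 was the highest. The mean rose 3.33-fold, with a log2 fold change of 1.70 ± 0.271 (SE) (adjusted p = 0.0333, limma). Il6 was called only when siNC replicate 1 or siCNN3 replicate 3 was the library left out (adjusted p up to 0.1404 in the other fits), and had an adjusted p just above 0.05 under median-of-ratios scaling (0.0506) and quantile normalization (0.0561).

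All 4 annotated Il6 transcripts were listed. Il6-204, which starts downstream of the others and has a coding length of 582 nucleotides, held between 48.7% and 61.8% of the FPKM of Il6 in every library. Its values were 6.44, 4.24 and 2.76 FPKM in siNC and 18.9, 16.2 and 16.4 FPKM in siCNN3 (adjusted p = 0.0727 on its own, limma). Il6-201, with a coding length of 633 nucleotides, went from 1.29 to 5.05 FPKM in the group means (adjusted p = 0.119), without overlap. Il6-203 was also higher in each siCNN3 library than in any control, at 3.42 to 5.97 against 1.40 to 2.97 FPKM. Il6-202 overlapped between the groups and was listed at 0 in siNC replicate 2.

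Lif (chromosome 11, 4257557 to 4272514) encodes leukemia inhibitory factor, which stimulates myoblast growth. It measured 4.22, 2.38 and 3.13 FPKM with control siRNA, compared with 4.47, 4.66 and 5.41 FPKM after knockdown. The groups did not overlap, though siNC replicate 1 was only slightly below the lowest siCNN3 library. Its log2 fold change was 0.48 with a 95% confidence interval of 0.02 to 0.95 before adjustment, and it was not called (adjusted p = 0.296, limma).

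**Figure D2:**
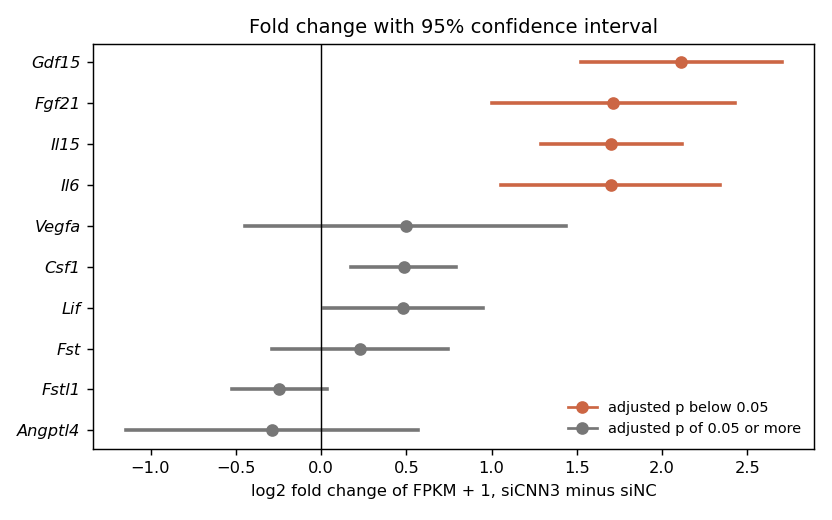
Log2 fold change of FPKM + 1, siCNN3 minus siNC, for the 10 genes, as points with bars for the 95% confidence interval of the limma fit. The 4 coloured genes have an adjusted p below 0.05, and the intervals of Vegfa, Fst, Fstl1 and Angptl4 include 0.

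Csf1 (chromosome 3, 107741048 to 107760469), for macrophage colony-stimulating factor, was among the more abundant of the 10 genes. It measured 89.03, 103.4 and 105.0 FPKM with control siRNA, compared with 152.5, 145.2 and 120.6 FPKM after knockdown. All siCNN3 libraries were above the controls, and siCNN3 replicate 3 was the nearest to them. The means differed 1.41-fold, with a log2 fold change of 0.49 and a 95% confidence interval of 0.18 to 0.79 before adjustment, and Csf1 was not called (adjusted p = 0.127, limma). Without siCNN3 replicate 3 the log2 fold change was 0.59 and Csf1 was called (adjusted p = 0.0463). Csf1-201, the longest of the 6 listed transcripts, held 77.4% to 85.0% of the FPKM in each library, so the total of Csf1 mostly follows it.

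The total of Vegfa (chromosome 17, 46016993 to 46032369) was 107.5, 42.3 and 85.6 FPKM in siNC and 78.5, 88.4 and 159.6 FPKM in siCNN3. The lowest library was siNC replicate 2 and the highest was siCNN3 replicate 3, and the groups overlapped. The log2 fold change was 0.50 with a 95% confidence interval of -0.44 to 1.44 (adjusted p = 0.583, limma). It was 0.11 without siNC replicate 2, 0.19 without siCNN3 replicate 3 and 0.77 without siNC replicate 1. Beneath this total the main transcripts changed places between libraries of the same group. Vegfa-201, with a coding length of 438 nucleotides, measured 83.8, 5.80 and 62.2 FPKM with control siRNA, compared with 19.8, 23.9 and 139.1 FPKM after knockdown. Vegfa-202, which starts upstream of it and has a coding length of 1104 nucleotides, measured 19.9, 33.0 and 20.2 FPKM with control siRNA, compared with 56.9, 62.0 and 17.8 FPKM after knockdown. Vegfa-201 held 78.0%, 72.7% and 87.2% of the gene in siNC replicate 1, siNC replicate 3 and siCNN3 replicate 3, and between 13.7% and 27.1% in the other 3 libraries. This split did not follow the groups. Neither was called on its own (adjusted p = 0.947 for Vegfa-201 and 0.669 for Vegfa-202, limma). Both end at the same base.

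**Figure D3:**
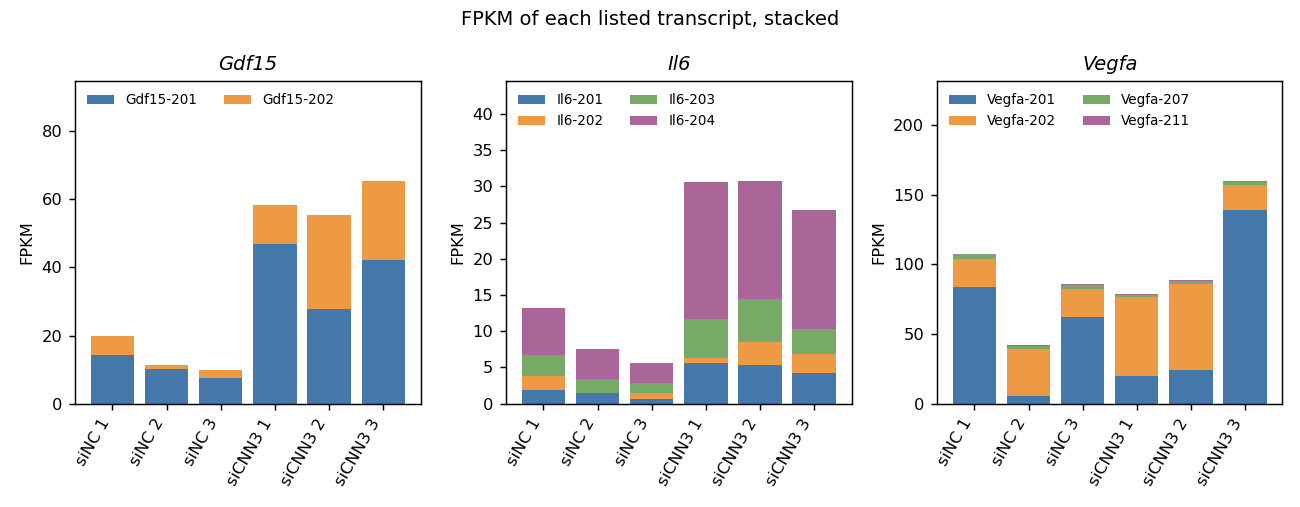
Stacked bars of the FPKM of each listed transcript of Gdf15, Il6 and Vegfa in the 6 libraries, each panel on its own linear axis. The bars of Gdf15 and Il6 are taller in all 3 siCNN3 libraries, and in Vegfa the larger segment is Vegfa-201 in siNC replicates 1 and 3 and siCNN3 replicate 3 and Vegfa-202 in the others.

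Angptl4 (chromosome 17, 33773750 to 33781830) measured 60.2, 41.3 and 65.0 FPKM with control siRNA, compared with 65.2, 53.5 and 24.9 FPKM after knockdown. The groups overlapped and siCNN3 replicate 3 was the lowest library. Its log2 fold change was -0.29 with a 95% confidence interval of -1.14 to 0.57 (adjusted p = 0.741, limma), and it was 0.12 without siCNN3 replicate 3.

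Fstl1 (chromosome 16, 37776873 to 37836514) was the most abundant of the 10 genes, with 212.0, 181.8 and 234.1 FPKM under control siRNA and 169.4, 181.1 and 176.4 FPKM after knockdown. The siCNN3 libraries were below the controls by a narrow margin, since siNC replicate 2 and siCNN3 replicate 2 nearly met. The log2 fold change was -0.24 with a 95% confidence interval of -0.52 to 0.03 (adjusted p = 0.362, limma). Fst (chromosome 13, 114452290 to 114458951) measured 1.58, 0.817 and 1.09 FPKM with control siRNA, compared with 1.80, 0.995 and 1.83 FPKM after knockdown, with overlapping groups and a log2 fold change whose 95% confidence interval ran from -0.29 to 0.75 (adjusted p = 0.649, limma). Each of its 2 listed transcripts was listed at 0 in 1 library. For a single gene, an exact two-sided permutation test of 3 libraries against 3 cannot give a p below 0.1, and it gave 0.1 for the 7 genes whose groups did not overlap and between 0.3 and 0.7 for Vegfa, Angptl4 and Fst.

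Promoters of 7 of the 10 genes were in the RefSeq promoter table of GRCm38.p6, which holds 250 bases before and 50 after each start, and those of Il15, Angptl4 and Fst were not matched. Motifs were searched on both strands as letters, and a match is a description of the sequence alone. The NF-κB motif was found in the promoters of Il6 and Csf1 and in 0.411% of the 32851 promoters of the table. The CARE motif of ATF4, TGATGNAA, was found in that of Fgf21 and in 3.97% of all promoters. Windows of 80 bases around these matches, with the matched bases in capitals, are shown 5′ to 3′ on the strand of the gene, for a gene that rose with each motif and for Csf1, which carries the same NF-κB motif and was not called.
Il6, plus strand, chr5:30013034-30013113: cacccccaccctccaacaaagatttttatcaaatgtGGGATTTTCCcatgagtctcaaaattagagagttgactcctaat
Csf1, minus strand, chr3:107760579-107760658: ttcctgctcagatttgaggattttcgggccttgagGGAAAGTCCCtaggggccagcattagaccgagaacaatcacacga
Fgf21, minus strand, chr7:45615586-45615665: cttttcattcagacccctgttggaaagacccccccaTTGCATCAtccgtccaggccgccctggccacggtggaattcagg
The match in Il6 begins 44 bases before the start, that in Csf1 154 bases before it in the reverse orientation, and that in Fgf21 139 bases before it, also reversed. The AP-1 motif TGANTCA was found in the promoters of Il6 and Lif and in 7.81% of all promoters. The hypoxia motif ACGTGC was found in those of Fgf21 and Gdf15 and in 5.91% of all, and the interferon-stimulated response element in that of Vegfa and in 3.44% of all. The matches overlap with no other motif of the search.

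Among 23 transcription factors and regulators upstream of such genes, 21 were tested, and 3 were called higher and 0 lower, beside 1.73% and 0.336% of all tested genes. At an unadjusted p below 0.05, 5 were higher and 4 lower, beside 9.94% and 6.14% of all tested genes. The 4 lower were Hif1a, Mef2a, Mef2c and Myog, and the 5 higher were the 3 called genes with Jun and Fos. Those called were Ddit3, Atf3 and Atf4, which act in the integrated stress response. Ddit3, the gene of CHOP, measured 121.5, 72.8 and 71.2 FPKM with control siRNA, compared with 438.0, 378.8 and 570.1 FPKM after knockdown (log2 fold change 2.40 ± 0.245 (SE), adjusted p = 0.0099, limma). Atf3 measured 9.61, 6.35 and 9.32 FPKM with control siRNA, compared with 32.2, 34.04 and 46.05 FPKM after knockdown, with a log2 fold change of 2.03 and an adjusted p of 0.0099. For Atf4 the values were 135.8, 188.7 and 184.7 FPKM and 399.8, 356.1 and 287.2 FPKM, with a log2 fold change of 1.03 and an adjusted p of 0.0427. The groups of Ddit3, Atf3 and Atf4 did not overlap. Atf3 and Ddit3 lost their call without siNC replicate 3 (adjusted p up to 0.0642), and Atf4 kept it only when siCNN3 replicate 3 was left out (up to 0.164). Atf4 was also not called under quantile normalization, without a trend, from its most abundant transcript, or without transcripts listed at 0. The NF-κB genes Rela and Nfkb1 had log2 fold changes of 0.04 and 0.16 (adjusted p = 0.918 and 0.922, limma), and Hif1a, which acts on Vegfa in hypoxia, had one of -0.45 (adjusted p = 0.177). The median log2 fold change of these 21 genes was 0.16.

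**Figure D4:**
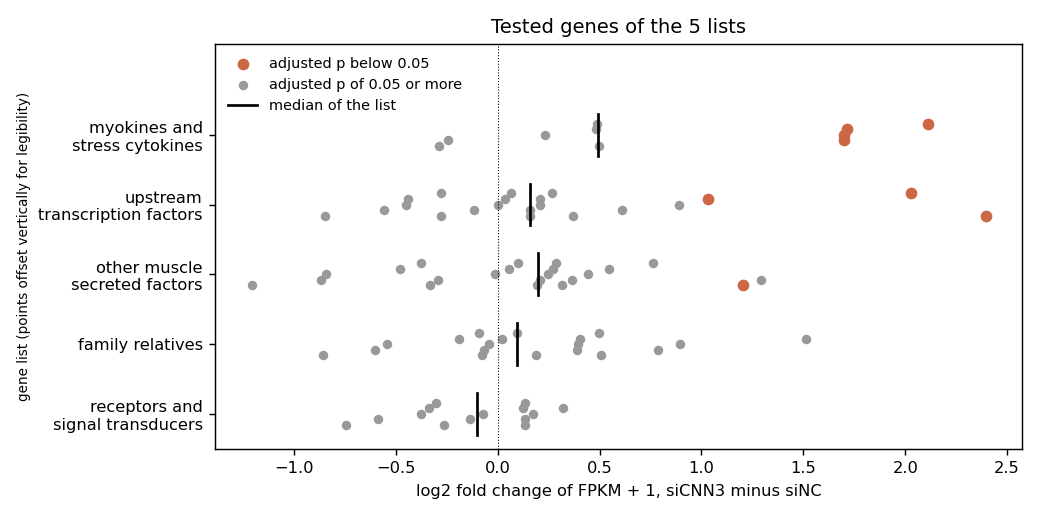
Log2 fold change of FPKM + 1, siCNN3 minus siNC, for the tested genes of the 10 myokines and stress cytokines and of 4 related lists, 1 point a gene, with a bar at the median of each list. Coloured points have an adjusted p below 0.05: 4 among the 10 genes, 3 among the transcription factors, 1 among the other secreted factors, and 0 in the lists of relatives and receptors.

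Of 26 receptors and signal transducers of these ligands, 15 were listed and 14 tested, and 0 were called in either direction (limma). Of all tested genes, 1.73% were called higher and 0.336% lower, so 0 calls in so short a list say little about the receptors. At an unadjusted p below 0.05, 0 were higher and 2 lower, beside 9.94% and 6.14% of all tested genes. Il6ra, the IL-6 receptor, measured 10.04, 10.3 and 12.7 FPKM with control siRNA, compared with 7.52, 6.58 and 6.76 FPKM after knockdown. The groups did not overlap, and Il6ra had a log2 fold change of -0.59 (unadjusted p = 0.00492, adjusted p = 0.106). Lifr, the LIF receptor, measured 14.4, 13.3 and 13.04 FPKM with control siRNA, compared with 6.60, 6.60 and 10.4 FPKM after knockdown, also without overlap (log2 fold change -0.75, unadjusted p = 0.00585, adjusted p = 0.111). The shared subunit gp130, encoded by Il6st, averaged 21.2 ± 6.68 FPKM with control siRNA and 22.6 ± 1.86 FPKM after knockdown (SD, n = 3 each). Stat3 and Socs3, which act downstream of gp130, had log2 fold changes of -0.26 and -0.14 (adjusted p = 0.597 and 0.838, limma). For the ligands that rose, Fgfr1 was listed at 88.3 ± 11.8 and 96.2 ± 13.8 FPKM and Il2rg, a receptor chain for Il15, at 4.55 ± 0.587 and 5.28 ± 1.86 FPKM (SD, n = 3 in each), while Klb, Il15ra, Il2rb, Gfral and Ret were not listed. Csf1r, Kdr and Flt1, receptors for Csf1 and Vegfa, were not listed either.

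Among 25 relatives of the 10 genes, 19 were tested and 0 were called (limma), beside 1.73% higher and 0.336% lower of all tested genes. At shares this small, 0 calls in a list of this size say little about the relatives. At an unadjusted p below 0.05, 2 were higher and 3 lower, beside 9.94% and 6.14% of all tested genes. The lowest p-values were those of Cntf, a cytokine of the Il6 family, with 2.36, 3.02 and 2.14 FPKM under control siRNA and 1.04, 0.955 and 0.786 FPKM after knockdown (log2 fold change -0.86, unadjusted p = 0.00131, adjusted p = 0.0571), and Angptl6, an angiopoietin-like gene as is Angptl4. Angptl6 measured 0.580, 0.806 and 0.830 FPKM with control siRNA, compared with 5.97, 4.55 and 2.15 FPKM after knockdown (log2 fold change 1.51, unadjusted p = 0.00147, adjusted p = 0.0604). The groups of both did not overlap. Of 28 other factors that muscle secretes, 22 were tested, and 1 was called higher and 0 lower, beside 1.73% and 0.336% of all tested genes, with 4 higher and 3 lower at an unadjusted p below 0.05, beside 9.94% and 6.14%. The 1 called was Nampt, an enzyme of NAD synthesis that is also found outside cells, with 19.5, 18.3 and 20.6 FPKM under control siRNA and 48.4, 48.0 and 42.1 FPKM after knockdown (log2 fold change 1.203 ± 0.117 (SE), adjusted p = 0.0099, limma). Nampt lost its call when either siNC replicate 3 or siCNN3 replicate 2 was removed (adjusted p up to 0.0603).

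For the 3 genes with the largest fold change, the genes with the most similar pattern were found by Pearson's r of log2(FPKM + 1) over the 6 libraries, among genes that averaged 5 FPKM or more. The 6 libraries fall into the 2 groups, so r draws on the difference between them. Among the closest genes to Gdf15 were Ddit3 (r = 0.994) and Whamm (0.992), and 60 of 8180 genes had an r above 0.95. Fgf21 was closest to Slfn4 (0.998), Aldh18a1 (0.998) and Ccnd2 (0.997). Their lower value in siCNN3 replicate 3 follows from this choice, since they were picked for a pattern like that of Fgf21. Slfn4 was at 0.108 to 0.312 FPKM in siNC and passed the limit of 5 FPKM through siCNN3. Aldh18a1 was at 66.4, 71.1 and 44.2 FPKM in the siCNN3 libraries. The closest to Il15 were Rmdn3 (0.998), Nampt (0.998) and Zfp979 (0.998). For Fgf21 and Il15, 255 and 207 of 8181 genes had an r above 0.95.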

How the data were processed

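RNA of 3 siNC and 3 siCNN3 samples was sequenced. The authors deposited FPKM per Ensembl transcript, in 1 table of 24023 transcripts. The submitters' processing notes name Bowtie 0.12.2 and the builds mm8 and mm10, without a role. The program that estimated FPKM, its annotation and the read numbers are not given in the sources used here. Identifiers without version were matched to GENCODE M21 (GRCm38), for 23949 transcripts of 11835 genes, and FPKM were summed per gene. Estimates for transcripts that share exons depend on how reads were split.

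The log2(FPKM + 1) of each gene that averaged 0.5 FPKM or more was fitted by limma 3.58.1 in R 4.3.3 (mean-variance trend, Benjamini-Hochberg adjustment over 11593 genes, threshold 0.05), and the fit was tested on simulated data. The 10 genes, the 4 related lists and the motifs were chosen with earlier results of these data known. Named are Cnn3, the 10 genes, the markers, called list members (or the 2 with the lowest p), receptors of called genes and the closest patterns. Rela, Nfkb1, Jun, Fos, Hif1a, Mef2a, Mef2c, Stat3 and Socs3 were picked after their values were seen. Alternatives were a pseudocount of 0.1, median-of-ratios scaling, a replicate block, no trend, quantile normalization, a filter at 5 FPKM or none, a Student test of each gene, the most abundant transcript, and each library left out. Removal of transcripts listed at 0 and the test of single transcripts were added after seeing the data. Figures were made with Python 3.11.15 and matplotlib 3.10.9. Some genes that these rules name are not reported here.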

Additional observations from a re-analysis of the deposited data

How the results depend on the processing

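Of the 10 genes, 4 were called higher, compared with 2 with a filter at 5 FPKM (Il6 and Gdf15, since Il15 and Fgf21 fall below it), under the replicate block (Il15 and Gdf15, with Il6 at an adjusted p of 0.0557 and Fgf21 at 0.105 by limma), with the most abundant transcript (Il6 and Il15) and without transcripts listed at 0 (Il6 and Gdf15), 0 under a Student test of each gene, and 0 to 5 with 1 library left out. None was called lower under any alternative. The count was 0 without siNC replicate 3 or siCNN3 replicate 2, 1 without siCNN3 replicate 1, 2 without siNC replicate 2, and 5 with Csf1 added without siCNN3 replicate 3. Fst had no value without transcripts listed at 0. The sign of each of the 10 genes held under every alternative in which it was fitted, except that Angptl4 ranged from -0.56 to 0.12 with 1 library left out and was above 0 only without siCNN3 replicate 3.

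Over all genes, limma gave 200 higher and 39 lower calls. Median-of-ratios scaling gave 63 lower genes and quantile normalization 93, and the share of calls that were higher was 83.7%, 77.7% and 68.2%. There were 62 and 6 calls under the replicate block, 100 and 22 with the most abundant transcript, 125 higher without transcripts listed at 0, and 0 and 0 under the Student test, which had 1084 higher and 716 lower genes at an unadjusted p below 0.05. With 1 library left out there were 16 to 444 higher and 4 to 161 lower genes, and Cnn3 ranged from -1.46 to -0.95 and was called only without siCNN3 replicate 2.

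Of the relatives, 1 (Angptl6) was called higher with a pseudocount of 0.1 or quantile normalization and 1 (Cntf) lower under both scalings and without a trend. With 1 library left out there were 0 to 2 higher and 0 to 1 lower. Of the other secreted factors, 2 (Nampt among them) were called higher with a filter at 5 FPKM or either scaling, 0 under the replicate block and the Student test, and 0 to 2 higher and 0 to 2 lower with a library left out. The transcription factors had 0 higher under the Student test, 2 (Atf3 and Ddit3, not Atf4) under quantile normalization, the replicate block, without a trend, with the most abundant transcript and without transcripts listed at 0, and 0 to 3 higher and 0 to 1 lower with a library left out, and the receptors had 0 to 1 lower (Lifr, without siCNN3 replicate 3). The cause of these changes was not tested.

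Same-numbered libraries deviated from their group means with correlations over genes of -0.28, 0.31 and -0.02, which shows no regular pairing by replicate number. Deviations from a mean of 3 libraries sum to 0 within each group, so these correlations constrain each other. Whether same-numbered samples were prepared together cannot be told from them, and the labels do not say. Not every sample correlated best with its own number, since siNC replicate 1 and siCNN3 replicate 3 had 0.44. The unknown depth limits what can be said of genes near 0 FPKM.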

Other observations

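Secreted factors that were not called also varied between libraries of the same group in the way of total Vegfa, with the lowest value in siNC replicate 2 and the highest in siCNN3 replicate 3. They were chosen after their values were seen. Ccn1, for a matricellular protein, measured 247.7, 45.7 and 111.7 FPKM with control siRNA, compared with 78.8, 94.9 and 429.0 FPKM after knockdown. Inhba, which encodes a subunit of activin A, a ligand that follistatin blocks, measured 28.6, 8.83 and 20.6 FPKM with control siRNA, compared with 21.7, 26.9 and 50.1 FPKM after knockdown. In both the groups overlapped.

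Other secreted factors differed between the groups without overlap and did not pass the test. Decorin (Dcn), a matrix proteoglycan, measured 183.3, 117.6 and 172.9 FPKM with control siRNA, compared with 51.6, 62.0 and 92.4 FPKM after knockdown (log2 fold change -1.21, adjusted p = 0.0752, limma). Bmp4, a bone morphogenetic protein, was lower by the same measure, at -0.87 on the log2 scale (limma, adjusted p = 0.0772). The groups did not overlap for Dcn and Bmp4, which were chosen after their values were seen.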
